A study of Homo sapiens with 6 samples.

Results

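The ligands, receptors and SMADs of the TGF-β pathway are described here as 10 genes chosen by name. They are TGFB1 and TGFB2 (ligands), TGFBR2, TGFBR1, ACVR1B and TGFBR3 (receptors), and SMAD2, SMAD3, SMAD4 and SMAD7 (signal transducers and an inhibitor). Each matched a single Ensembl gene, so that 10 of the 58884 genes of the deposited table are described. The choice used no measured value of this comparison, but it was made with earlier results of these data known.

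The series compared DLD1 parental cells with DLD1 cells that carry the changes K477A and R478A in p85β (p85β KR-AA). DLD1 is a colorectal cancer cell line. p85β, the product of PIK3R2, is a regulatory subunit of PI3K, and both changed residues lie in its nuclear localization signal. RNA-seq was performed on 3 parental and 3 p85β KR-AA libraries, to ask whether p85β in the nucleus affects transcription. No treatment is named for either group. The knock-in was made at the endogenous locus, and the study describes a pair of independently derived clones, while the labels do not name the clone behind a library. Nothing in the labels says that the libraries of a group came from separate cultures, so p-values measure the spread between these libraries, which may be technical, and the mutation cannot be told apart from differences between clones.

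TGF-β ligands are secreted in a latent form. Once released, they bind a type II receptor kinase, which phosphorylates and switches on a type I receptor kinase. The type I receptor in turn phosphorylates the receptor SMADs, which join the common SMAD and act on genes in the nucleus, whereas an inhibitory SMAD blocks the receptor complex. In the colon epithelium the pathway restrains growth, and colorectal cancers often lose a receptor or a SMAD.

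The promoters of both ligand genes are printed, and those of the other genes were not searched. The ligand genes moved in opposite directions, and whether their promoters play a part in this was not tested. The windows hold the 250 bases before the start site in RefSeq (GRCh38.p14), 5′ to 3′ on the strand of the gene. The windows were searched on both strands for the motifs spelled out next, and capitals mark their matches. GGGCGG is known as a GC box. TATAAA is the core of a TATA box. An E-box bound by many helix-loop-helix factors reads CACGTG, the same on either strand. A sequence that SMAD proteins can bind is CAGACA, and it may overlap the E-box. The TGFB1 window is chr19:41353923-41354172 on the minus strand and the TGFB2 window chr1:218345086-218345335 on the plus strand.
TGFB1: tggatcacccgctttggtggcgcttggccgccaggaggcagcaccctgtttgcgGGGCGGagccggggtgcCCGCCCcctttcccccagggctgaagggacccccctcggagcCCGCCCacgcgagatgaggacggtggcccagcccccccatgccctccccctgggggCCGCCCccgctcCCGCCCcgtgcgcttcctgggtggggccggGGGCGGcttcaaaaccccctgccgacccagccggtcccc
TGFB2: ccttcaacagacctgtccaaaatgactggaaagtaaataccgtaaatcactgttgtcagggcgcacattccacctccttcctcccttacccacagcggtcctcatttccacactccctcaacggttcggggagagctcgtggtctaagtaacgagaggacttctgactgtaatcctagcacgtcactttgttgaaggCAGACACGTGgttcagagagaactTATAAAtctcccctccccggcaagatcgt

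The TGFB1 window was 76.8% G and C with 21 CpG dinucleotides, and held 6 matches to GGGCGG but none to the other motifs. The TGFB2 window was 50.4% G and C with 11 CpG dinucleotides. It held TATAAA beginning 29 bases before the start, CACGTG 49 bases before it and CAGACA 53 bases before it, the last pair overlapping within CAGACACGTG, and no GGGCGG. Among 35116 RefSeq windows of this length, the median was 58% G and C, and GGGCGG was present in 42.6%, TATAAA in 10.7%, CACGTG in 6.34% and CAGACA in 13.6%. All 10 genes had a promoter in the table. A match is a run of letters and does not show that a factor binds there.

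Compared with the parental cells, 6 of the 10 genes were up-regulated in p85β KR-AA cells (TGFB2, TGFBR1, TGFBR2, TGFBR3, SMAD2 and SMAD4), 1 was down-regulated (TGFB1), and ACVR1B, SMAD3 and SMAD7 were not called. Calls needed a change of 3-fold or more together with an adjusted p-value under 0.01 (edgeR quasi-likelihood F test, Benjamini-Hochberg adjustment over 16059 genes tested). In the whole table, 28.6% of the tested genes were called up-regulated and 17.6% down-regulated. The median log2 fold change of the 10 genes was 1.85, beside 0.32 over all genes tested. In bulk RNA, a change in the RNA of each cell and a change in the share of cells of a kind cannot be told apart. All 10 passed the filter on low counts, and 9 of them did not overlap between the groups, as did 83.4% of all genes tested.

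Levels are in CPM, counts scaled to a common library size with TMM factors, and are compared between genes only after division by gene length (CPM per kilobase). The deposited totals were 20301932 to 20873475 counts in the parental and 20301396 to 26712816 in the p85β KR-AA libraries, so that 3 counts correspond to 0.0818 to 0.218 CPM. The TMM factors were 0.677 to 0.777 in the parental and 1.35 to 1.41 in the p85β KR-AA libraries. Scaling by the totals alone moved the median log2 fold change of all genes from 0.32 to 1.24, and the share of up-regulated among called genes from 61.9% to 87.9%. With the offsets for gene length described later this share was 47.0%. PIK3R2 itself had 169 to 524 counts in the parental and 125 to 503 in the p85β KR-AA libraries, overlapping ranges, and was not called (log2 fold change -0.93, SE 0.42). Counts per gene do not show the knock-in, so they do not check the labels.

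Among the ligands, TGFB1 was the more abundant in every library, though by less in each p85β KR-AA library than in any parental one. TGFB1 (ENSG00000105329, chr19:41807492-41859827 on GRCh37) encodes the most widely expressed TGF-β ligand. It had 333.8, 354.2 and 290.6 CPM in the parental libraries and 70.0, 71.7 and 79.3 CPM in the p85β KR-AA libraries. Every p85β KR-AA library lay below every parental one, and TGFB1 was down-regulated 4.43-fold (log2 fold change -2.15, SE 0.13, adjusted p = 1.66e-08). Scaled by library totals, the log2 fold change was -1.22, under the fold threshold.

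The annotated span of TGFB1 overlaps HNRNPUL1 on the opposite strand, whose mean count was 4260 in the parental group and 6720 in the p85β KR-AA group. Counts in this paragraph are not scaled and do not show a direction between the groups. Library sizes after TMM were 13732120 to 16209483 in the parental and 27444315 to 36661625 in the p85β KR-AA libraries. Other genes overlapping it are CCDC97 (685 and 600 counts), ENSG00000255730 (150 and 106), TMEM91 (29.7 and 40.4) and the same-strand lncRNA ENSG00000286177 (12.3 and 26.7). TGFB1 itself had 4710 to 5026 and 2059 to 2568 counts. The sources used here do not state whether counting used strand, so reads of overlapping exons cannot be assigned with certainty.

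TGFB2 (ENSG00000092969, chr1:218518678-218617961) encodes a ligand that binds the type II receptor poorly unless the co-receptor TGFBR3 presents it. It had 1.21, 1.72 and 0.921 CPM in the parental libraries, from 14.9 to 23.6 estimated counts, and 23.1, 25.7 and 21.0 CPM in the p85β KR-AA libraries. The groups were far apart, and TGFB2 was up-regulated 18.2-fold (log2 fold change 4.18, SE 0.24, adjusted p = 1.19e-08), the largest change among the 10 genes. TGFB2-OT1, a transcript on the same strand at its end, went from a mean of 3.08 to 65.0 counts. TGFB2-AS1 on the opposite strand went from 0 to 3 counts, and neither was scaled for library size.

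Within each library, the length-scaled level of TGFB1 was 465-fold that of TGFB2 in parental cells (geometric mean) and 5.79-fold in p85β KR-AA cells. The log2 ratio of TGFB2 to TGFB1 was -8.86 ± 0.30 (SD, n = 3) against -2.53 ± 0.23, a difference of 6.33. Such a ratio does not depend on how libraries are scaled to each other. In a two-sided exact permutation test the difference had p = 0.1, the smallest that 3 against 3 libraries can give (adjusted over 5 ratios, 0.125).

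**Figure D1:**
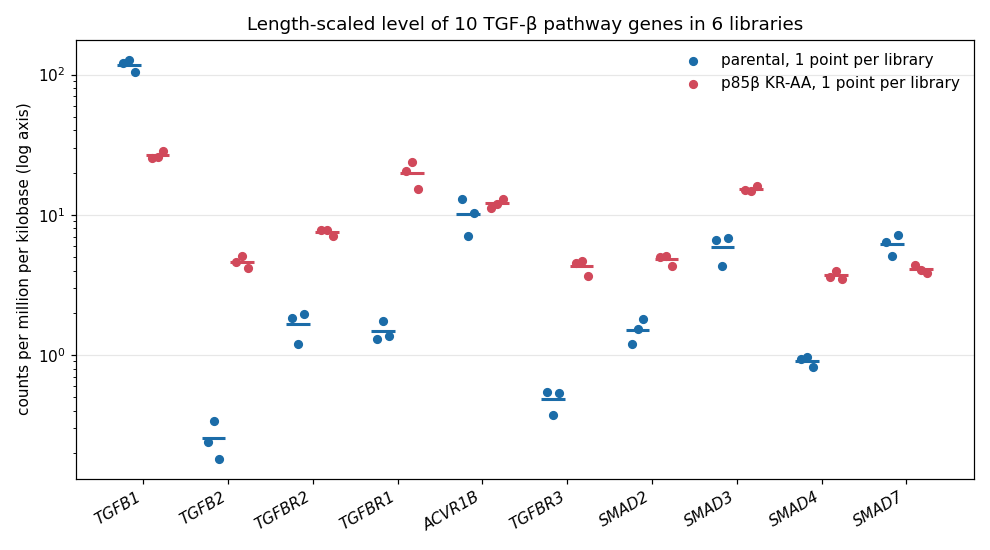
Length-scaled level (CPM per kilobase, log axis) of each gene in each library, 3 parental (blue) and 3 p85β KR-AA (red), with bars at the group means. TGFB1 fell from a mean of 117.8 to 26.6 and TGFB2 went from 0.254 to 4.60, while the libraries of ACVR1B overlap.

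Among the receptors, both receptors of the canonical TGF-β complex and the co-receptor were up-regulated, while the activin receptor ACVR1B was not called. TGFBR2 (ENSG00000163513, chr3:30648093-30735634), the type II receptor that binds ligand, had 8.50, 5.53 and 9.07 CPM in the parental libraries and 35.6, 36.1 and 32.8 CPM in the p85β KR-AA libraries. The lowest p85β KR-AA library was well above the highest parental one. TGFBR2 was up-regulated 4.50-fold (log2 fold change 2.17, SE 0.20, adjusted p = 4.19e-07).

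TGFBR1 (ENSG00000106799, chr9:101866320-101916474), the type I receptor that phosphorylates SMAD2 and SMAD3, had 7.77, 10.3 and 8.08 CPM in the parental libraries and 121.4, 141.5 and 89.9 CPM in the p85β KR-AA libraries. The p85β KR-AA libraries varied more among themselves than the parental ones (117.6 ± 26.0 against 8.73 ± 1.40 CPM, SD, n = 3), yet the groups were far apart. TGFBR1 was up-regulated 13.5-fold (log2 fold change 3.75, SE 0.20, adjusted p = 7.54e-09).

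ACVR1B (ENSG00000135503, chr12:52345483-52390862), the type I receptor for activins and NODAL, which signals through the same SMADs, had 23.0, 12.7 and 18.3 CPM in the parental and 20.0, 21.5 and 23.3 CPM in the p85β KR-AA libraries. The groups overlapped, and the log2 fold change was 0.26 (SE 0.21, adjusted p = 0.255). Without parental replicate 2, the lowest library, it was 0.03, and without parental replicate 1 it was 0.47.

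TGFBR3 (ENSG00000069702, chr1:92145900-92371892), the proteoglycan betaglycan that presents ligand and has no kinase, had 2.13, 1.46 and 2.10 CPM in the parental libraries and 17.8, 18.3 and 14.4 CPM in the p85β KR-AA libraries. The groups did not overlap. TGFBR3 was up-regulated 8.83-fold (log2 fold change 3.14, SE 0.23, adjusted p = 5.84e-08).

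Ratios between the receptor transcripts were also taken within each library. The length-scaled level of TGFBR2 was 1.12-fold that of TGFBR1 in parental cells and 0.388-fold in p85β KR-AA cells (log2 ratio 0.16 ± 0.60 and -1.37 ± 0.26, SD, n = 3). ACVR1B was 6.68-fold above TGFBR1 in parental cells and 0.618-fold of it in p85β KR-AA cells (2.74 ± 0.65 and -0.69 ± 0.41). Neither ratio overlapped between the groups, and each difference had p = 0.1 in the exact permutation test, the smallest possible (adjusted 0.125).

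Among the SMADs, SMAD2 and SMAD4 were up-regulated, SMAD3 was higher at less than the fold threshold, and SMAD7 was lower at less than the fold threshold. SMAD2 (ENSG00000175387, chr18:45335328-45457517), a receptor SMAD, had 14.5, 18.4 and 21.7 CPM in the parental libraries and 60.8, 61.1 and 52.1 CPM in the p85β KR-AA libraries. The groups did not overlap, and SMAD2 passed the fold threshold narrowly (3.18-fold, log2 fold change 1.67, SE 0.17, adjusted p = 1.34e-06). Without parental replicate 1 the log2 fold change was 1.52 and with DESeq2 it was 1.56, both under the threshold. It turned negative, to -0.89 and -1.50, with the offsets for gene length and for length and GC content described later.

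SMAD3 (ENSG00000166949, chr15:67356101-67487511), the receptor SMAD that contacts DNA directly, had 43.0, 27.7 and 44.5 CPM in the parental libraries and 96.9, 95.3 and 103.7 CPM in the p85β KR-AA libraries. All p85β KR-AA libraries were higher, by 2.57-fold (log2 fold change 1.36, SE 0.17, adjusted p = 9.89e-06), which did not reach a fold of 3. SMAD2 and SMAD3 thus lay on opposite sides of the fold threshold, and their changes were not shown to differ. The length-scaled ratio of SMAD3 to SMAD2 was 3.90 in parental and 3.18 in p85β KR-AA cells (log2 ratio 1.96 ± 0.49 and 1.67 ± 0.20, SD, n = 3, exact permutation p = 0.6).

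SMAD4 (ENSG00000141646, chr18:48554898-48611415), the common SMAD and a tumor suppressor of the colon, had 7.90, 8.16 and 6.97 CPM in the parental libraries and 30.6, 33.9 and 29.8 CPM in the p85β KR-AA libraries. The groups did not overlap, and SMAD4 was up-regulated 4.10-fold (log2 fold change 2.03, SE 0.16, adjusted p = 1.51e-07). With the same offsets it was -0.14 and -0.79. The study singled out SMAD4 on these same libraries, so its direction is not independent evidence.

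SMAD7 (ENSG00000101665, chr18:46446223-46477335), which blocks receptor SMADs and brings ubiquitin ligases to the receptor, had 28.3, 22.4 and 32.0 CPM in the parental libraries and 19.3, 18.0 and 17.1 CPM in the p85β KR-AA libraries. All p85β KR-AA libraries were lower after TMM scaling, by 1.52-fold (log2 fold change -0.61, SE 0.17, adjusted p = 0.00525), but the log2 fold change was 0.31 when libraries were scaled by their totals, where the median of all genes was 1.24. Within libraries, the length-scaled level of SMAD7 was 6.81-fold that of SMAD4 in parental cells and 1.11-fold in p85β KR-AA cells (log2 ratio 2.77 ± 0.37 and 0.15 ± 0.13, SD, n = 3). This difference of -2.62 had p = 0.1 in the exact permutation test, the smallest possible (adjusted 0.125).

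**Figure D2:**
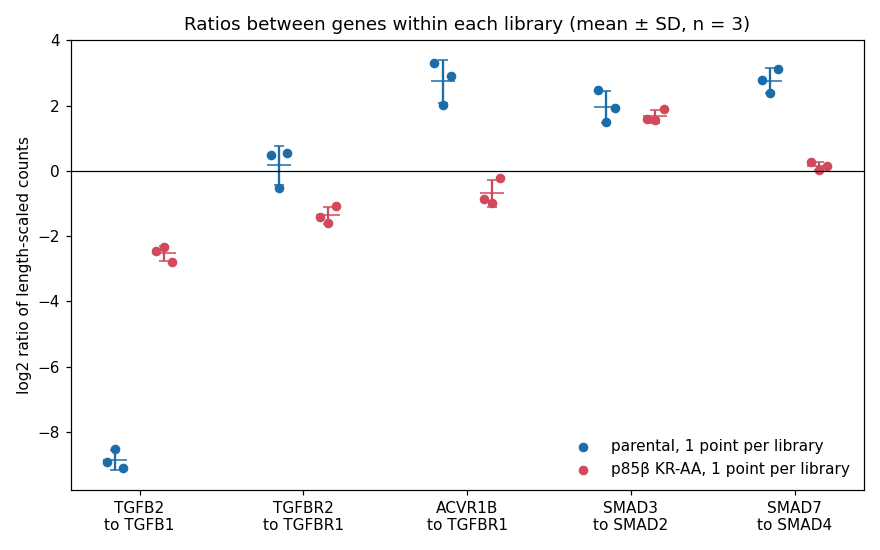
Log2 ratio of the length-scaled counts of a pair of genes within each library, 3 parental (blue) and 3 p85β KR-AA (red), with the mean and SD of each group. The groups are apart for 4 of the 5 ratios, from -8.86 to -2.53 for TGFB2 to TGFB1, and overlap for SMAD3 to SMAD2.

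The order of the genes by length-scaled level differed between the groups below TGFB1, which was first in both. In parental cells, TGFB1 (117.8 CPM per kilobase) was followed by ACVR1B (10.1), SMAD7 (6.22), SMAD3 (5.94), TGFBR2 (1.67), SMAD2 (1.51), TGFBR1 (1.47), SMAD4 (0.903), TGFBR3 (0.482) and TGFB2 (0.254). The ranges of the libraries overlapped between neighbours for ACVR1B and SMAD7, SMAD7 and SMAD3, TGFBR2 and SMAD2, and SMAD2 and TGFBR1. ACVR1B was above SMAD7 in each of the 3 libraries, while the order within the other overlapping pairs varied between libraries.

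In p85β KR-AA cells, TGFB1 (26.6 CPM per kilobase) was followed by TGFBR1 (19.8), SMAD3 (15.3), ACVR1B (12.1), TGFBR2 (7.56), SMAD2 (4.80), TGFB2 (4.60), TGFBR3 (4.29), SMAD7 (4.09) and SMAD4 (3.70). TGFBR1 moved from rank 7 to rank 2 and SMAD7 from rank 3 to rank 9. Neighbours overlapped for TGFBR1 and SMAD3 and for every pair from SMAD2 down to SMAD4. Even so, TGFB2 was above TGFBR3 and SMAD7 above SMAD4 in each of the 3 libraries. SMAD4, although up-regulated, had rank 8 in parental and rank 10 in p85β KR-AA cells.

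Fold changes in this comparison varied with gene length and GC content across the whole table, and these properties differ among the 10 genes. Of all tested genes over 4000 bases long, 50.9% were called up-regulated and 3.97% down-regulated (median log2 fold change 1.65). At 2000 bases or less, 12.5% were up-regulated and 33.2% down-regulated (median -0.86). The genes over 4000 bases long number 7 of the 10, and they hold 5 of the 6 up-regulated genes, while TGFBR3 has 3927 bases, TGFB1 has 2769 and ACVR1B 1791.

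The up-regulated genes also had low GC content. All 6 lay at 38.8% to 42.7% GC, in the class of at most 45% in which 50.2% of all tested genes were up-regulated (median log2 fold change 1.60). SMAD3 (51.1%) and ACVR1B (52.6%) lay in the middle class (median 0.22), and SMAD7 (57.0%) and TGFB1 (63.6%) in the class above 55%, of which 39.7% was down-regulated (median -1.23). Across the 10 genes the Spearman correlation of the log2 fold change with GC content was -0.75, and across 15902 genes with a GC value it was -0.57, both within the same libraries. With gene length these were 0.35 and 0.45.

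**Figure D3:**
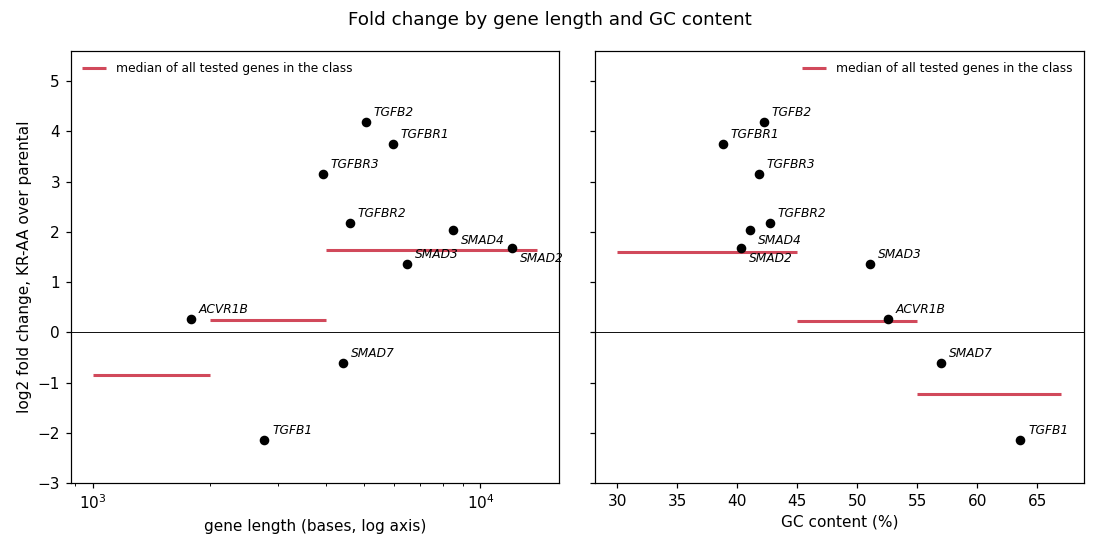
Log2 fold change of the 10 genes (points) against gene length (left, log axis) and GC content (right), with red bars at the median of all tested genes in 3 classes of each. TGFB2, TGFBR1, TGFBR3, TGFBR2 and SMAD4 lie above the medians of their classes in both panels and TGFB1 below them. ACVR1B (0.26) is also above both, narrowly so for its GC class (0.22). SMAD2 (1.67) lies close to the medians of 1.65 for long genes and 1.60 for genes of low GC content.

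Offsets that remove the relation of counts with gene length in each library moved the median log2 fold change of the 10 genes to 0.21, beside -0.09 over all genes. TGFB2 (2.83), TGFBR3 (2.28) and TGFBR1 (2.09) remained up-regulated and TGFB1 (-2.40) down-regulated, with SMAD7 (-1.70) now also down-regulated. TGFBR2 was 1.00 and ACVR1B 0.56, under the fold threshold. SMAD2, SMAD3 and SMAD4 changed sign, to -0.89, -0.40 and -0.14. With offsets for both length and GC content, only TGFB2 was called among the 10 (log2 fold change 2.08), and the median of all genes was -0.13. TGFBR3 (1.36), TGFBR1 (1.22), ACVR1B (0.79) and TGFB1 (-0.93) were under the fold threshold, as were TGFBR2 (0.25), SMAD3 (0.15), SMAD7 (-0.55), SMAD4 (-0.79) and SMAD2 (-1.50). These offsets remove such relations whatever their source, and the part of length and GC content in the results was not tested.

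Pairs of genes kept or lost their difference under these offsets as follows. TGFB2 exceeded TGFB1 in log2 fold change by 5.23 with length offsets and by 3.01 with length and GC offsets, beside 6.33 without. The difference of SMAD7 from SMAD4 went from -2.64 to -1.56 and then changed sign, to 0.24. ACVR1B minus TGFBR1 kept its sign at -1.54 and -0.43, and TGFBR2 minus TGFBR1 at -1.09 and -0.98. SMAD3 minus SMAD2 changed sign, from -0.31 to 0.49 and 1.65.

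**Figure D4:**
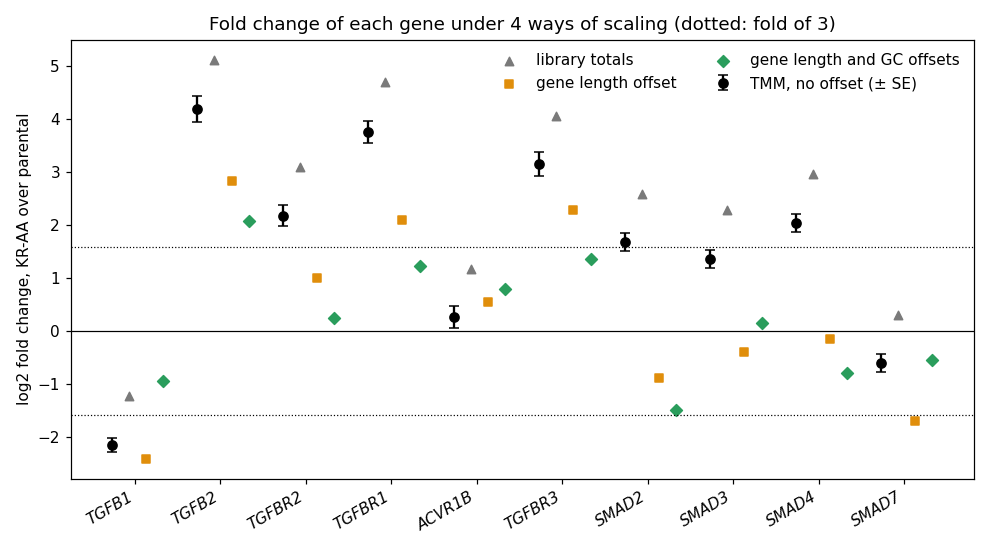
Log2 fold change (p85β KR-AA over parental) of each gene with TMM scaling (black, ± SE), library totals (grey), gene length offsets (orange) and gene length and GC offsets (green), with dotted lines at a fold of 3. TGFB2 is above the dotted line under all 4 and TGFB1 below 0 under all 4, whereas SMAD2 ranges from -1.50 to 2.59.

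Of 57 other genes of the pathway, 49 passed the filter, of which 24 were up-regulated and 2 down-regulated (median log2 fold change 1.52). Over all genes tested, 28.6% were up- and 17.6% down-regulated (median 0.32), and these shares belong beside every list and marker set below. With length offsets 9 were up- and 6 down-regulated, beside 2825 and 3186 of all 16059 genes. With length and GC offsets 10 were up- and 3 down-regulated, beside 2087 and 1921 of all 15902 genes. The lists were written by function and not by how the genes moved, although earlier results of these data were known. Among 6 other ligands, 4 passed the filter and 1 was up-regulated (median 0.57). It was INHBA, the subunit of activin A, which had 1 count over the parental libraries and 19.6, 21.1 and 13.4 CPM in the p85β KR-AA libraries. The ratio was 819 with a 95% counting interval of 147 to 32376. TGFB3, the third TGF-β ligand, had 1.10 ± 0.60 and 2.31 ± 0.09 CPM (SD, n = 3) and was not called.

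Of 11 genes for latency and activation, 9 passed the filter, of which 4 were up-regulated and 0 down-regulated (median log2 fold change 1.52). ITGB8, an integrin subunit that pairs with ITGAV to release latent TGF-β, was up-regulated with a log2 fold change of 4.29 (SE 0.32), from a mean of 0.434 to 8.79 CPM. ITGAV was up-regulated by 3.15 (SE 0.23), from 7.79 to 69.2 CPM. ITGB8 had too few parental counts to pass the filter without the p85β KR-AA group, so its direction was largely fixed in advance. LTBP1, which anchors latent ligand to the matrix, and ITGB6 were the other genes called, and among the 5 not called LTBP3 was lower (log2 fold change -1.44). With length offsets 1 gene of the list was up- and 2 down-regulated, and with length and GC offsets 0 in both directions. LRRC32, too low to be tested with all libraries, was down-regulated when parental replicate 2 or any p85β KR-AA library was left out. It could pass the filter there only through the parental group, so its direction was fixed in advance.

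All 5 of the 6 other receptors that passed the filter were called, 4 up and 1 down (median log2 fold change 2.11). ENG (endoglin), a co-receptor of the same family as TGFBR3, was up-regulated by 5.16 (SE 0.29), from 0.507 to 18.5 CPM, and ACVR2A, an activin type II receptor, by 2.17 (SE 0.27). ACVRL1, a type I receptor known from endothelium, was down-regulated with a log2 fold change of -3.16 (SE 0.25), from 7.40 to 0.820 CPM. Of the 4 up-regulated, ACVR1C, at 0.553 CPM in p85β KR-AA cells, lost its call with DESeq2 and with the replicate block. It also lost its call without any library other than parental replicate 1. With either kind of offset 1 receptor was up- and 1 down-regulated. ENG and ACVR1C had too few parental counts to pass the filter without the p85β KR-AA group, so their direction was largely fixed in advance. Requiring 10 counts in every library left 2 receptors up- and 1 down-regulated.

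Of 6 extracellular inhibitors, 4 passed the filter and 2 were up-regulated, both without a count in the parental libraries. FST (follistatin), which traps activins, had 11.0, 10.7 and 11.1 CPM in the p85β KR-AA libraries and was at least 50.1-fold higher, with the floor set at 3 counts per library. DCN (decorin), a matrix proteoglycan that binds TGF-β, had 4.26, 3.62 and 2.37 CPM and was at least 15.6-fold higher. The median log2 fold change of the list was 4.79 as fitted and 2.12 with these genes at their bounds.

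Of 8 SMAD cofactors, 7 passed the filter, of which 4 were up-regulated and 0 down-regulated (median 2.10). EP300, a histone acetyltransferase recruited by SMADs, was up-regulated by 3.07 (SE 0.31), and TRIM33, a ubiquitin ligase that binds SMADs, by 2.83 (SE 0.22). With either kind of offset 0 cofactors were up-regulated, and with length offsets 1 was down-regulated. Of 10 regulators of receptors and SMADs, 5 were up-regulated and 1 down-regulated (median 1.56). They include USP15, a deubiquitinase (2.93, SE 0.28), and PMEPA1, which sequesters receptor SMADs (2.12, SE 0.18). BAMBI, a decoy receptor without a kinase, was the gene down-regulated, with -2.26 (SE 0.14), from 54.9 to 11.4 CPM. With either kind of offset 1 regulator was up- and 1 down-regulated, and in the test against a fold of 3 there were 2 and 1.

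Target genes of the pathway were split. Of the 10 listed, 4 were up-regulated and 0 down-regulated (median log2 fold change 0.89). CCN2, a secreted matrix protein that YAP also controls, had 3.25, 2.48 and 3.52 CPM in the parental and 269.8, 262.5 and 286.6 CPM in the p85β KR-AA libraries (87.9-fold, log2 fold change 6.46, SE 0.17). COL4A1, a basement membrane collagen, was up-regulated by 2.84 (SE 0.26), BHLHE40, a repressor, by 2.40 (SE 0.18) and TGFBI, a matrix protein, by 1.86 (SE 0.14). With length offsets 3 targets were up- and 0 down-regulated, and COL4A1 lost its call (log2 fold change 1.05). With length and GC offsets 4 were up- and 0 down-regulated.

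The other 6 targets did not reach a fold of 3. CDKN2B, a cell cycle inhibitor, had a log2 fold change of 0.71 (SE 0.18). ANGPTL4 had -0.85 (SE 0.12), the cell cycle inhibitor CDKN1A -0.97 (SE 0.12), JUNB -1.07 (SE 0.12) and TGFB1I1 -1.21 (SE 0.17). None of the 10 targets overlapped between the groups, 6 being higher and 4 lower in all p85β KR-AA libraries. Of all genes tested, 83.4% did not overlap either.

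The related BMP pathway, whose ligands signal through other receptor SMADs and share SMAD4, was compared by a list of 13 genes. All 13 passed the filter, 5 were up-regulated and 2 down-regulated (median log2 fold change 1.41), beside 6 and 1 of the 10 TGF-β genes (median 1.85). The difference between these lists was not tested. SMAD5, a receptor SMAD of BMP signals (3.39, SE 0.29), and BMPR2, the type II receptor (3.32, SE 0.23), were up-regulated. ID3, a target of BMP signals (-3.14, SE 0.14), and BMP7, a ligand (-1.59, SE 0.25), were down-regulated, the latter just past the fold of 3. BMP7 was under it without parental replicate 1 or 3 or p85β KR-AA replicate 1 or 2, which left 1 gene down-regulated in each case. With length offsets 1 gene of the list was up- and 2 down-regulated, and with length and GC offsets 0 and 1.

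Markers of cell type also moved between the groups. Of 12 intestinal epithelial markers, 11 passed the filter, 2 were up-regulated (CDH1 and CDH17) and 7 down-regulated, with a summed level of 57874 to 80004 CPM for the parental group and 8943 to 10460 CPM for the p85β KR-AA group. KRT8, KRT18 and KRT19 made up 97.8% and 91.8% of these sums. The call of CDH1 was lost without parental replicate 2, leaving 1 up-regulated, and with length and GC offsets 0 were up- and 4 down-regulated. The colon transcription factor CDX2 was down-regulated 3.94-fold, from a mean of 347.0 to 88.0 CPM, and was still present in both groups. KRT8, KRT18, KRT19, VIL1, LGALS4 and CLDN7 were the other markers down-regulated, LGALS4 to a mean of 0.659 CPM. VIL1 lost its call without p85β KR-AA replicate 2. CDX1 had at most 3 counts in every library. Of 12 fibroblast markers, 7 passed the filter, 4 were up-regulated and 0 down-regulated, and their sum went from 8.52 to 11.4 CPM to between 1723 and 1859 CPM. Nearly all of it in p85β KR-AA libraries was VIM (means 0.803 and 1772 CPM). All 7 tested were higher in every p85β KR-AA library than in any parental one, as were 7542 of all 16059 genes tested. LUM, COL3A1 and COL6A3 had at most 1 count over the parental libraries. These genes could pass the filter only through the p85β KR-AA group, so their direction was fixed in advance. LUM, with no parental count, had 7.15, 5.99 and 3.72 CPM, and COL3A1, also with none, had 4.20, 3.48 and 3.53 CPM. COL6A3 was the other gene called, and COL1A1, PDGFRB and ACTA2 were not called. COL1A2, THY1, FAP and SPARC stayed under 1 CPM and PDGFRA had no count. Of 10 blood markers, 3 passed the filter and none was called, summing to 55.6 to 72.8 CPM and 39.0 to 47.6 CPM. The part of these shifts in the results was not tested.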

How the data were processed

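RNA-seq libraries were made from total RNA (TRIzol, Illumina TruSeq kit). The authors deposited estimated counts (expected counts, not normalized) per Ensembl gene with a gene length column. Between 8.78% and 14% of all values of a library, those of 0 included, were not whole. The design allowed for estimated counts, and the values were rounded before testing. All sample columns were used. The study trimmed paired-end reads with SeqPrep and Sickle. The submitters' processing notes list HISAT2 2.1.0, RSEM 1.3.1, DESeq2 1.24.0 and build hg18 without roles. Whether counting used strand is not given in the sources used here.

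Libraries were grouped by the genotype in the labels. The groups were compared by the quasi-likelihood F test of edgeR 4.0.16 (R 4.3.3), after TMM and filterByExpr (minimum count 10, minimum total 15), with the thresholds of the study. SE is the absolute log2 fold change divided by the root of F. Ratios had 0.5 counts added and were compared by exact permutation tests (SciPy 1.17.1). Counting intervals and floors cover counting error only. Symbols, positions and GC content came from GENCODE release 44 lifted to GRCh37, which matched 56745 of 58884 identifiers, and promoters from RefSeq (GRCh38.p14). The build behind the counts could not be settled, so positions are those of the annotation.

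The members and lists were chosen with earlier results of these data known. Named were all 10 members, the target genes (1 of which is not reported here by name), and of each other list up to 2 genes higher and 2 lower with the largest fold change among called genes that did not overlap between groups and had a mean of at least 1 CPM in the higher group, besides the edited gene and genes overlapping a member. TGFB3, LTBP1, LTBP3, ITGB6, LRRC32, ACVR1C and single markers were named after their values were seen. Alternatives were DESeq2 1.42.0, library totals, other filters and thresholds, robust moderation, a replicate block, leaving out single libraries, and length and GC offsets (robust spline, 5 degrees of freedom, MASS). The code was tested on simulated data.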

Additional observations from a re-analysis of the deposited data

How the results depend on the processing

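Beside 4597 up- and 2825 down-regulated genes with TMM, scaling by library totals gave 7052 and 973, with 0 of the 10 TGF-β genes down-regulated. Gene length offsets gave 2825 up- and 3186 down-regulated genes, with 3 TGF-β genes up- and 2 down-regulated. Gene length and GC offsets gave 2087 up- and 1921 down-regulated genes, with 1 TGF-β gene up- and 0 down-regulated. DESeq2 put the median log2 fold change of all genes at 0.21. Requiring 10 counts in every library left 2898 up-regulated genes. A fold of 2 and adjusted p of 0.05 gave 4289 down-regulated genes, and the test against a fold of 3 gave 2974 up- and 1779 down-regulated.

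SMAD2 reversed to -0.89 and SMAD4 to -0.14 with length offsets and to -1.50 and -0.79 with length and GC offsets, SMAD3 to -0.40 with length offsets, and SMAD7 to 0.31 with library totals. The cause was not tested. Of 170 comparisons of a TGF-β gene's log2 fold change with an alternative, 152 kept direction and side of the thresholds, 9 lost the call, 3 gained it and 6 reversed. Robust moderation, the fold of 2 and the test against a fold of 3 share the main log2 fold change, so direction could not differ there. Leaving out each library gave 4404 to 4783 up- and 2774 to 2992 down-regulated genes, with 5 to 6 TGF-β genes up- and 1 down-regulated. SMAD2 was the gene lost, without parental replicate 1. By its construction, the filter of 10 counts in every library removes INHBA, FST, DCN, ITGB8, ENG and ACVR1C. In the main fit these genes could not pass the filter without the p85β KR-AA group, so their direction was fixed or largely fixed in advance.

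The replicate block gave 4626 up- and 2827 down-regulated genes (4618 and 2823 with robust moderation), and 6 TGF-β genes up- and 1 down-regulated. Deviations of same-numbered libraries correlated by -0.14, 0.12 and -0.04, and those of differently numbered libraries by -0.18 to 0.23. No pairing by number was seen, but these values cannot show whether same-numbered libraries shared a culture or batch, which the labels do not state. With 3 libraries a group, TGFB2 and TGFBR3 rested on 14.9 to 34.0 counts in parental libraries.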
